A study of Mus musculus with 5 samples.

Results

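The complement system is a cascade of plasma and cell-surface proteins of innate immunity, and 9 of its genes were followed across 5 libraries labelled as mouse visceral adipose tissue. The 9 genes were taken by name: C1qa, C1qb and C1qc, which encode the chains of the recognition molecule C1q, C2 and C4b of the classical pathway, the central component C3, factor B (Cfb) and properdin (Cfp) of the alternative pathway, and the C3a receptor gene C3ar1. All 9 were found among the 78334 genes of the table by Ensembl ID, and all 9 were among the 29855 genes that passed the low-count filter.

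Male C57BL/6 mice were used. Control 1 is the single library of the control group, which ate standard chow and received vehicle. Diabetes 1 and diabetes 2 come from the untreated diabetic group: streptozotocin, a toxin of insulin-producing cells, was injected once at 70 mg/kg at 2 days of age, feeding on a high-fat diet (fat at 60% of kcal) began at 3 weeks of age and ran for 8 weeks, and vehicle was given. Curcumin-treated 1 and 2 had the same streptozotocin and diet, and in addition curcumin, a polyphenol of turmeric, by gavage at 50 mg/kg daily for 28 days from 11 weeks of age. The chow-fed control differs from the diabetic groups in both toxin and diet, so their effects cannot be told apart. Whether the libraries of a group are from separate mice is not stated in the labels. The p-values below therefore reflect only how far these libraries scatter, and that scatter may be technical.

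C1q binds immune complexes, dying cells and some microbes, and its attached proteases cleave C4 and then C2, which together form an enzyme that cleaves C3. The alternative pathway reaches C3 by another route, through factor B, which is cut by factor D (adipsin), and properdin, which steadies the resulting enzyme. C3 fragments coat targets, and the small fragment C3a signals through its receptor on myeloid cells. Macrophages are the main source of C1q outside the plasma, the liver makes most circulating C3, C4 and factor B, and adipocytes and stromal cells of fat are known to make C3 and factor D.

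Total counts ran from 25378046 to 42422890 per library. The libraries stand apart in tissue content, and not along the group labels. Markers of the epididymal epithelium (15 genes), a duct that lies against the gonadal fat of males, took 7.32% of the counts of control 1, 7.02% of diabetes 1 and 10.7% of curcumin-treated 2, but 0.602% of curcumin-treated 1, where 99.1% of it was Crisp1 alone, and held 8 counts in all in diabetes 2. Adipocyte markers (12 genes) took 2.48% of diabetes 2 and 0.338% of curcumin-treated 1, against 0.00754% to 0.0334% of the other libraries, where the defining gene Adipoq was at 1.34 to 15.1 CPM (counts scaled to the library total). Smooth muscle markers took 4.31% of curcumin-treated 1 and at most 0.247% elsewhere. Diabetes 2 and curcumin-treated 1 held 1610 CPM and 180 CPM of this gene, so the labelled tissue was scarcely represented by its defining marker in the other 3. Every result below rests on libraries of unlike content.

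Upstream sequence was at hand for 5 of the 9 genes, from RefSeq on GRCm38.p6, as windows of 300 bases with 250 before and 50 after the annotated start. The windows of C1qb and C1qc are shown because these neighbouring genes had the most similar levels among the C1q chains, and that of C3 because its levels spread the most widely of these windows. All run 5′ to 3′ on the minus strand (chr4:136886151-136886450, chr4:136892865-136893164 and chr17:57228087-57228386), and capitals mark matches to the motifs searched.
C1qb: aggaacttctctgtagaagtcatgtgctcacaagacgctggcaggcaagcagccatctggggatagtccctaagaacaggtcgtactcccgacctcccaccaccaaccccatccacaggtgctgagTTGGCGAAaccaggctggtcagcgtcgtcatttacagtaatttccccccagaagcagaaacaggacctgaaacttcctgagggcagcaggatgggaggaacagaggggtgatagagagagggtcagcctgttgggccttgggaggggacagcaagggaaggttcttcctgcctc
C1qc: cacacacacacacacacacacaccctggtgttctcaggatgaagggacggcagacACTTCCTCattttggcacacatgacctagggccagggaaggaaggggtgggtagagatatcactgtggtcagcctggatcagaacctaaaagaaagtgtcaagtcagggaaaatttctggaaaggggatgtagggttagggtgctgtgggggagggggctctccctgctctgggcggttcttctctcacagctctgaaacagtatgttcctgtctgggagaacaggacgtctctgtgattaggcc
C3: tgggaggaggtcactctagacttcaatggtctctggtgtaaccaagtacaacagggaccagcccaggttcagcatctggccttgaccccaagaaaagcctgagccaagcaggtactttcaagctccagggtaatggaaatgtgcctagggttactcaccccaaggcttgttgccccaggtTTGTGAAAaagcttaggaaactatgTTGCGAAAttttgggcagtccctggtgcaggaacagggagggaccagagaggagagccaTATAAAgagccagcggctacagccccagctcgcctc
Both strands were searched for TATAAA (the core promoter box of that name), GAGGAAGT (a PU.1-type ETS site), TTGNNNAA and TTGCGCAA (C/EBP, where the latter is a special case of the former), TGCTGAC (a MAF half-site), the interferon-stimulated response core and TTCNNNGAA (gamma-activated site). C3 held TTGNNNAA at positions 181 to 188 and 206 to 213, counted from 1 at the 5′ end of the window, and TATAAA at 265 to 270. C1qb held TTGNNNAA at 127 to 134, and C1qc held GAGGAAGT on the other strand at 56 to 63. Of 32851 windows of this length, 36.7% hold TTGNNNAA, 13.6% hold TATAAA and 3.20% hold GAGGAAGT. TGCTGAC (4.67% of windows), the interferon-stimulated response core (3.44%), TTCNNNGAA (8.30%) and TTGCGCAA (0.183%) matched none of the 5 available windows of the complement genes. A match is a description of these letters and not evidence of binding.

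The chains of C1q were highest in diabetes 2 and lowest in diabetes 1. C1qa (ENSMUSG00000036887) stood at 38.6 CPM in control 1, 23.7 CPM in diabetes 1, 267 CPM in diabetes 2, and the curcumin-treated libraries held 111 CPM and 110.0 CPM. Both curcumin-treated libraries lay between the diabetic ones and above the control. C1qb (ENSMUSG00000036905) stood at 39.9 CPM in control 1, 27.6 CPM and 457 CPM in diabetes 1 and 2, and 95.4 CPM and 49.6 CPM in curcumin-treated 1 and 2. C1qc (ENSMUSG00000036896) stood at 42.3 CPM in control 1, 25.5 CPM and 305 CPM in diabetes, and 74.9 CPM and 57.6 CPM with curcumin. The order of the libraries for C1qb and C1qc was the same, with curcumin-treated 1 above curcumin-treated 2, while the C1qa levels of these libraries were level.

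C2 and C4b are needed together for the classical C3-cleaving enzyme, yet they spread very differently. C4b (ENSMUSG00000073418) was at 25.2 CPM in control 1, 7.90 CPM in diabetes 1, 1181 CPM in diabetes 2, and the curcumin-treated libraries 1 and 2 held 122 CPM and 31.5 CPM. Diabetes 2 held 150 times the level of diabetes 1. C2 (ENSMUSG00000024371), the protease partner, was at 12.0 CPM in control 1, 4.24 CPM and 28.1 CPM in diabetes, and 4.82 CPM and 8.11 CPM with curcumin, a ratio of 6.63 between the diabetic libraries and the narrowest of the 9 genes. It was the only one of the 9 with both curcumin-treated libraries below the control, and the counting intervals of diabetes 1 (95% Poisson, 3.48 to 5.12 CPM) and curcumin-treated 1 (4.04 to 5.71 CPM) overlapped.

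C3 (ENSMUSG00000024164) was the most abundant of these genes in diabetes 2 by counts, at 1721 CPM, against 31.4 CPM in control 1 and 17.96 CPM in diabetes 1, and the curcumin-treated libraries 1 and 2 held 225 CPM and 43.7 CPM. The diabetic libraries differed by a factor of 95.8 and the curcumin-treated ones by 5.16. Across the libraries C3 and C4b kept nearly the same proportions: after each gene was centred on its own mean log2 CPM, they differed by a root mean square of 0.31, against 1.25 for C3 and C1qc.

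In the alternative pathway, Cfb (ENSMUSG00000090231) held 624 counts in diabetes 2 (24.6 CPM), 31 in curcumin-treated 1 (1.11 CPM), 4 in curcumin-treated 2 (0.0943 CPM) and 0 in control 1 and diabetes 1. For 0 counts a limit of 3 counts was used, which is 0.111 CPM for control 1 and 0.118 CPM for diabetes 1. Diabetes 2 was 222-fold above the limit of control 1 and 209-fold above that of diabetes 1. The 95% Poisson intervals at 0 counts reach higher, to 0.136 CPM and 0.145 CPM, so these factors are not lower bounds. In the GENCODE M21 annotation (GRCm38), 79.5% of the exon bases of Cfb, and 42.8% of those of C2, are also exon bases of the read-through gene Gm20547 on the same strand. Gm20547 held 0 counts in every library, and how the counting treated reads that fit more than 1 gene is not given in the sources used here, so the levels of Cfb and C2 may be understated. Cfp (ENSMUSG00000001128), which myeloid cells secrete, stood at 6.44 CPM in control 1, 3.18 CPM and 71.2 CPM in diabetes, and 15.5 CPM and 9.90 CPM with curcumin. Its pattern was closest among these genes to C1qb (root mean square difference 0.25) and C1qc (0.31), and far from Cfb (1.84).

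The receptor gene C3ar1 (ENSMUSG00000040552) stood at 6.18 CPM in control 1, 2.79 CPM in diabetes 1, 147 CPM in diabetes 2, and the curcumin-treated libraries 1 and 2 held 12.2 CPM and 6.32 CPM. Curcumin-treated 2 and control 1 did not differ beyond counting error (95% Poisson intervals 5.58 to 7.12 CPM and 5.28 to 7.19 CPM). Diabetes 2 exceeded the next highest library by a factor of 12.1.

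**Figure D1:**
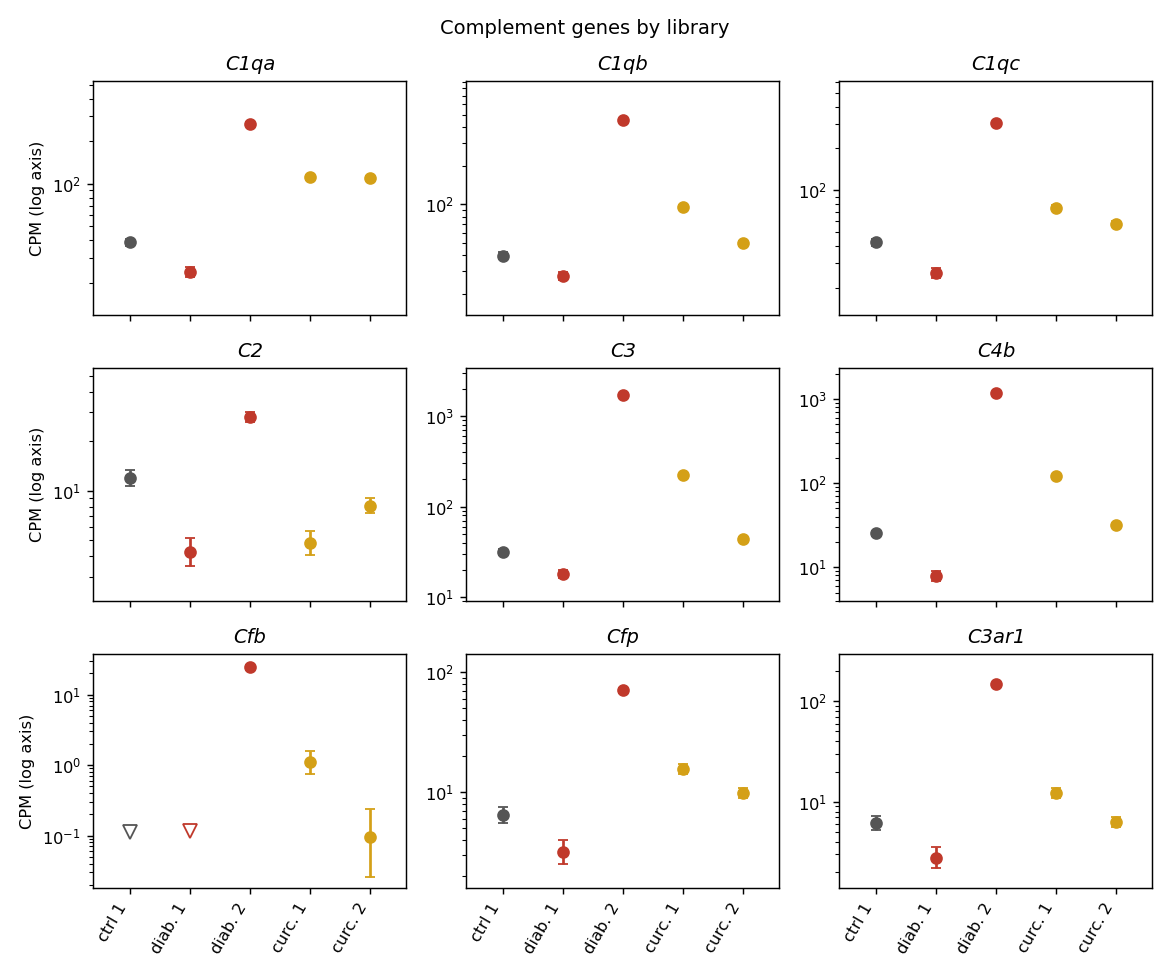
CPM, scaled by library total (log axis, a separate range in each panel) for the 9 complement genes in control 1 (grey), diabetes 1 and 2 (red) and curcumin-treated 1 and 2 (yellow). Bars are 95% Poisson intervals of the count and open triangles mark 0 counts at the limit of 3 counts; diabetes 2 is the highest point in all 9 panels.

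The shared pattern can be set against all genes tested. Diabetes 2 was the highest of the 5 libraries for 9 of 9 complement genes, where 22% of all tested genes had this order. Both curcumin-treated libraries lay between the diabetic ones for 9 of 9, against 25% of all tested genes. Diabetes 1 was the lowest library, ties included, for 9 of 9, against 33.4%. Apart from ties, the place of the curcumin-treated libraries follows from these highest and lowest libraries and is not a further pattern. For C2 and Cfb, the 95% Poisson intervals of diabetes 1 and the nearest curcumin-treated library overlapped. The genes were not chosen independently of earlier results of these data, so these counts describe and do not test. Markers of macrophages (14 genes) took 0.187% of diabetes 2 and 0.0147% to 0.0267% of the other libraries, with Adgre1 at 230 CPM in diabetes 2 and 4.36 to 15.1 CPM elsewhere; the part of macrophage, adipocyte and epididymal content in the complement levels was not tested. In bulk tissue, fewer cells of a type and less RNA per cell cannot be told apart.

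The size of the difference was not shared. Between diabetes 2 and diabetes 1 the 8 genes with counts in both differed by factors from 6.63 (C2) to 150 (C4b), with a median of 19.5, while the median ratio over the 20569 tested genes with counts in both was 0.844. The C1q chains (11.2 for C1qa, 16.6 for C1qb, 12.0 for C1qc) and Cfp (22.4) formed the middle of this range, and C3ar1 (52.8), C3 (95.8) and C4b the top. The summed macrophage markers differed less (0.187% against 0.0147%) than the summed adipocyte markers (2.48% against 0.00754%).

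Compared per length, the place of C3 among the C1q chains depended on the length used. Per kilobase of exon (all annotated exons of a gene in GENCODE M21), the levels in control 1 were 37.1 CPM for C1qa, 36.7 CPM for C1qb and 21.9 CPM for C1qc, all above the 6.11 CPM per kilobase of C3. In diabetes 2 the order was C1qb (420 CPM per kilobase), C3 (335), C1qa (257), C4b (207), C1qc (158), Cfp (41.0), C3ar1 (34.2), Cfb (8.70) and C2 (7.27). By this length C3 also lay above C1qc in curcumin-treated 1 (43.8 against 38.8 CPM per kilobase). Per kilobase of coding sequence, a choice made after the values were seen, C3 lay below every C1q chain in all 5 libraries: in diabetes 2 it was at 345 CPM per kilobase, with C1qa at 363, C1qc at 413 and C1qb at 602. Per kilobase of the longest transcript, C3 lay above C1qa and C1qc in diabetes 2 (335 against 257 and 254) but below C1qc in curcumin-treated 1 (43.9 against 62.2).

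The make-up of C1q at the transcript level, which does not depend on scaling, differed between libraries. Counts of C1qa made up 32.0% of the summed C1q counts in control 1 (95% Wilson interval 30.4% to 33.6%), 30.9% in diabetes 1 (28.9% to 33.0%) and 25.9% in diabetes 2 (25.4% to 26.5%). They made up 39.5% in curcumin-treated 1 (38.4% to 40.6%) and 50.6% in curcumin-treated 2 (49.6% to 51.7%). Both curcumin-treated libraries therefore held a larger C1qa share than the other 3, by more than counting error. C1qb took its largest share in diabetes 2 (44.4%) and its smallest in curcumin-treated 2 (22.9%), and C1qc ran from 26.5% in curcumin-treated 2 to 35.0% in control 1. With 2 libraries against 2, an exact two-sided permutation test cannot give a p below 0.333, so the difference between the groups cannot pass a threshold of 0.05. The longest annotated transcripts of C1qa, C1qb and C1qc have a GC content of 59.5%, 57.4% and 57.5% and share no window of 150 bases between C1qa and C1qb or between C1qb and C1qc; the part of base composition was not tested.

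**Figure D2:**
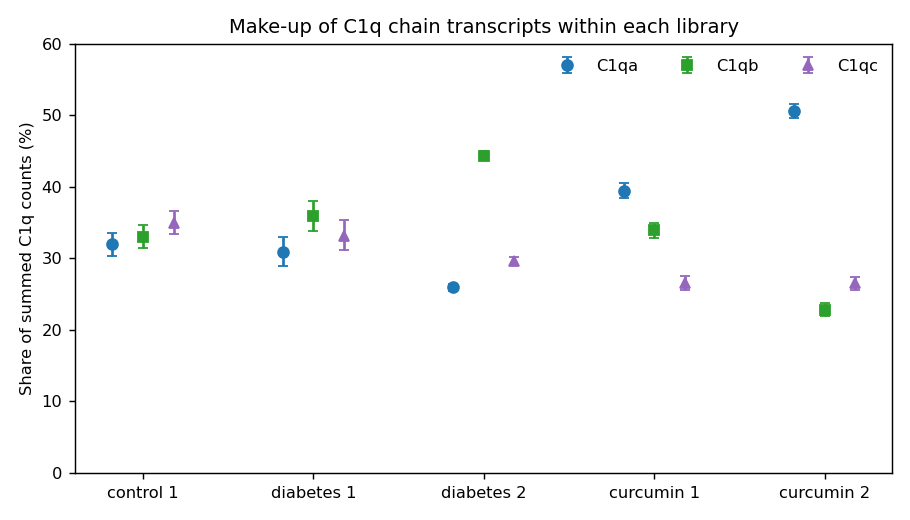
Share of the summed C1qa, C1qb and C1qc counts (percent, vertical axis) held by each chain gene in each library, with 95% Wilson intervals. C1qa is the largest share in both curcumin-treated libraries (39.5% and 50.6%) and the smallest of the chains in the other 3, from 25.9% in diabetes 2 to 32.0% in control 1.

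Relative to macrophage markers, the C1q sum was highest in the curcumin-treated libraries, and C1qa took the largest part in this. The summed C1q counts were 0.803 per count of the 14 macrophage markers in control 1. They were 0.523 and 0.549 for diabetes 1 and 2, and 1.05 and 1.17 for curcumin-treated 1 and 2. The diabetic libraries, which differed by factors of 11.2 to 16.6 in the chains themselves, had 95% counting intervals of this ratio that overlap (0.495 to 0.552 and 0.541 to 0.557). By chain, C1qa stood at 0.257 in control 1, 0.162 and 0.142 in diabetes and 0.415 and 0.592 with curcumin. C1qb in curcumin-treated 2 (0.267) was level with control 1 (0.266), and C1qc in curcumin-treated 1 (0.280) was level with control 1 (0.281), each within the counting intervals. For the sum, the order of the groups was the same when the most abundant marker of each library was left out. The ratios were then 0.764 and 0.834 in diabetes and 1.73 and 1.87 with curcumin. The marker left out was Csf1r in control 1, Mertk in diabetes 1 and Lyz2 in the others. These ratios therefore rest on unlike sets of markers. With Adgre1 and Cd68 alone, a choice made after the values were seen, the ratio was 4.11 and 1.75 in diabetes, 5.58 in control 1, and 7.76 and 12.9 with curcumin. Among the markers, Mertk (46.4 CPM in diabetes 1, 11.8 CPM in curcumin-treated 1) and Cx3cr1 (2.01 CPM in diabetes 2, 18.7 CPM in control 1) did not follow the rest of the list.

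**Figure D3:**
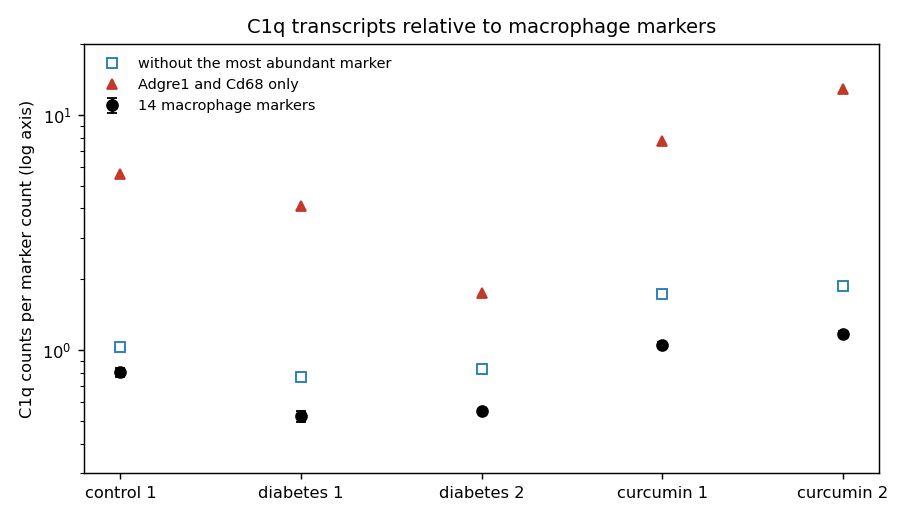
Summed C1qa, C1qb and C1qc counts per macrophage marker count in each library (log axis). Black points use all 14 markers with 95% counting intervals. Blue squares leave out the most abundant marker, which differs between libraries, and red triangles use Adgre1 and Cd68 only. Under all 3 measures both curcumin-treated libraries lie above the other 3.

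None of these genes kept a fixed ratio to macrophage markers. C3 stood at 0.918 per marker count in diabetes 2 and 0.843 in curcumin-treated 1, and at 0.122 to 0.235 in the others. Diabetes 2 and curcumin-treated 1 hold the most adipocyte transcripts and also the fewest epididymal ones. The part of either tissue in the C3 ratio was not tested. C4b varied by a factor of 11.7 between libraries in this ratio, C3 by 7.51, C2 by 5.33, C1qa by 4.16, C3ar1 by 4.14, Cfp by 2.68, and C1qc and C1qb by 1.91 and 1.90. Cfb held 0 counts in some libraries and has no such factor.

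The comparison of curcumin-treated with untreated diabetes asks what the treatment changes in these genes. All 9 had a negative fitted log2 fold change (median −1.87, against 0.05 over all genes tested), and 0 of 9 passed an adjusted p of 0.05 in edgeR's quasi-likelihood test, where 0% of all genes did. At an unadjusted p under 0.05, edgeR counted 0 of the 9 and 696 of all genes, and DESeq2 called 0 of the 9 (1 at an unadjusted p under 0.05) and 0.315% of all genes. C3 averaged 135 ± 129 CPM with curcumin and 869 ± 1204 CPM without it (SD, n = 2 each), a log2 fold change of −2.87 (SE 1.95; edgeR adjusted p = 0.852). C4b differed by −3.12 (SE 2.02) and C3ar1 by −3.15 (SE 1.67), with the same adjusted p of 0.852 in edgeR. The C1q chains differed by −0.49 (SE 1.11) for C1qa, −1.87 (SE 1.29) for C1qb and −1.42 (SE 1.15) for C1qc (edgeR adjusted p = 0.952, 0.852 and 0.854). Cfp differed by −1.67 (SE 1.35), C2 by −1.38 (SE 1.06) and Cfb by −4.55 (SE 2.74). No gene of the 9 had groups that did not overlap. Of all genes, 9.72% had both curcumin-treated libraries below both diabetic ones and 17.9% had both above.

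These signs all turned when diabetes 2 was left out. Without that library all 9 fitted values were positive, from 0.73 for C2 to 3.31 for C4b and 7.16 for Cfb, the last of which depends on the prior count because diabetes 1 holds 0 counts; the adjusted p in edgeR was 0.633 to 0.780. Among the libraries rich in epididymal transcripts, curcumin-treated 2 was above diabetes 1 by factors of 1.80 (C1qb) to 4.63 (C1qa) in the 8 genes with counts in both. In the other pair, curcumin-treated 1 lay below diabetes 2 in all 9, by factors of 2.40 (C1qa) to 22.1 (Cfb). Over tested genes with counts in both, the median ratio was 0.872 for curcumin-treated 2 over diabetes 1. For diabetes 2 over curcumin-treated 1 it was 0.852. The latter libraries were unlike in content. Smooth muscle markers took 4.31% of curcumin-treated 1 and 0.0337% of diabetes 2, and adipocyte markers 0.338% and 2.48%. Each of these pairs has 1 library a side, so they carry no test.

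The comparison of diabetes with the control asks what the diabetes model changes. The fitted log2 fold change was positive for 9 of 9 (median 2.84, against 0.07 over all genes), and 0 passed in edgeR (adjusted p = 1 for each; 0% of all genes passed). C3 differed by 5.04 (SE 2.94), C4b by 4.80 (SE 2.98), C3ar1 by 3.85 (SE 2.33), C1qb by 2.84 (SE 1.77), Cfp by 2.77 (SE 1.87), C1qc by 2.20 (SE 1.54), C1qa by 2.14 (SE 1.51) and C2 by 0.65 (SE 1.31). Diabetes 2 was above the control and diabetes 1 below it for 8 of 9 genes, an order found in 17.9% of all genes; both diabetic libraries were above the control for 0 of 9 (17.3% of all genes) and both below it for 0 of 9 (34.5%); Cfb, with 0 counts in both control 1 and diabetes 1, was the exception. Without diabetes 2 these 8 values were negative, from −0.49 for C1qb to −1.63 for C4b. DESeq2 called 1 of the 9, Cfb (adjusted p = 1.5e-07), and 0.178% of all genes. All Cfb counts in this comparison are the 624 of diabetes 2. The DESeq2 fitted value for a control at 0 counts is no measure of size. At an unadjusted p under 0.05, DESeq2 counted 3 of the 9 and 3.19% of all genes.

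The comparison of curcumin-treated diabetes with the control sets 2 libraries against 1. Both curcumin-treated libraries were above the control for 8 of 9 genes, all but C2, against 24.6% of all genes, and both were below it for C2, against 34%. For Cfb and C3ar1 this order was not resolved in curcumin-treated 2. Its 4 Cfb counts (0.0943 CPM, against 31 counts in curcumin-treated 1) lay under the limit of 0.111 CPM for control 1 at 0 counts. Its C3ar1 level (6.32 CPM) did not differ from that of control 1 (6.18 CPM) beyond counting error. C1qa was at 110 ± 0.746 CPM (SD, n = 2) against 38.6 CPM, with factors of 2.88 and 2.85 over the control in the individual libraries (log2 fold change 1.66, SE 1.47; edgeR adjusted p = 1). The small SD of C1qa holds for scaling by library total, since with TMM scaling these libraries were at 105 CPM and 120 CPM. C3 differed by 2.17 (SE 2.49), with factors of 7.17 in curcumin-treated 1 and 1.39 in curcumin-treated 2. C4b (1.68, SE 2.48), Cfp (1.10, SE 1.70), C1qb (0.97, SE 1.59), C1qc (0.78, SE 1.43), C3ar1 (0.69, SE 1.95) and C2 (−0.73, SE 1.25) were the others with counts in every library. None of the 9 passed in edgeR (adjusted p = 1 for each, 0 at an unadjusted p under 0.05; 0% of all genes passed), while DESeq2 called Cfb alone (adjusted p = 6.7e-05; 0.241% of all genes). The signs of all 9 were the same without any single diabetic or curcumin-treated library, although C3 was at 0.71 without curcumin-treated 1 and 2.86 without curcumin-treated 2.

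**Figure D4:**
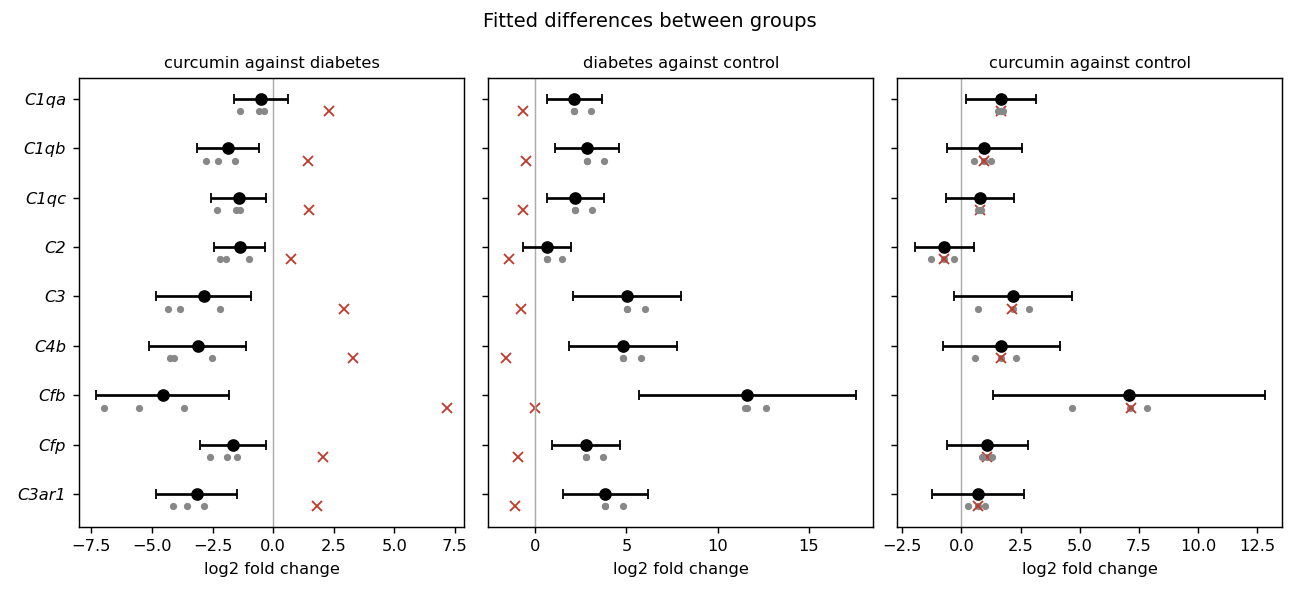
Fitted log2 fold changes (horizontal axis) of the 9 complement genes in the 3 comparisons, as black points with standard errors. Grey points leave out 1 library each and red crosses leave out diabetes 2; the crosses fall on the other side of 0 for all 9 genes in the first panel and for 8 in the second.

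The rest of the pathway was described with 40 further complement genes, of which 34 passed the low-count filter. None passed the threshold in any comparison in edgeR (0, 1 and 0 of the 34 at an unadjusted p under 0.05 with curcumin against diabetes, diabetes against control and curcumin against control) or in DESeq2 (3, 6 and 2 at that p). At that p stood 2.33%, 1.47% and 0.375% of all tested genes in edgeR and 4.53%, 3.19% and 2.23% in DESeq2, where the listed genes' shares were 8.82%, 17.6% and 5.88%. With curcumin against diabetes 26 of the 34 had a negative fold change (median −1.17), with diabetes against control 27 were positive (median 2.03), and with curcumin against control 23 were positive (median 0.64). Diabetes 2 was the highest library for 23 of the 34, against 22% of all genes, but the parts of the pathway differed. All 7 receptor genes had a positive value in diabetes against control (median 4.76, against 0.07 over all genes). Diabetes 1 was nevertheless below control 1 for C5ar1 (1.38 and 2.00 CPM), Itgam (2.12 and 3.44 CPM) and Itgb2 (2.63 and 3.33 CPM). Vsig4 held 0 counts in both libraries. C5ar2, Itgax and Cr2 were above control 1 in diabetes 1, Cr2 with 12 counts against 1. Itgb2, the common chain of the complement receptors CR3 and CR4, was at 208 CPM in diabetes 2 and 2.63 to 15.8 CPM elsewhere. Itgax, the CR4 partner chain, was at 154 CPM in diabetes 2 and 1.52 to 17.4 CPM elsewhere, and the C5a receptor gene C5ar1 at 90.5 CPM against 1.38 to 8.34 CPM.

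Among the recognition and initiating proteases, C1s1 and C1ra encode the proteases carried by C1q. Both were highest in diabetes 2 and lowest in diabetes 1, as the C1q chains were. C1s1 was at 33.6 CPM in control 1, 11.3 CPM and 181 CPM in diabetes, and 35.1 CPM and 22.8 CPM with curcumin. C1ra ran from 12.4 CPM in diabetes 1 to 81.1 CPM in diabetes 2. The similarly named C1s2 and C1rb did not share this order. C1s2 was highest in control 1 (8.73 CPM) and lowest in diabetes 2 (3.19 CPM). C1rb was lowest in control 1 (0.740 CPM), and curcumin-treated 2 (11.5 CPM) was near diabetes 2 (12.3 CPM). Fcna, a ficolin of the lectin pathway, had another order, with its highest level in control 1 (29.1 CPM), then curcumin-treated 2 (20.1), diabetes 1 (18.9), diabetes 2 (11.8) and curcumin-treated 1 (2.37). Its higher libraries are those with 7.02% or more of their counts in epididymal markers. The part of the epididymis in the Fcna levels was not tested.

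Cfd, the adipsin gene, had the same 3 highest libraries as Adipoq: it was at 558 CPM in diabetes 2, 221 CPM in curcumin-treated 1 and 101 CPM in control 1, but at 3.58 CPM in curcumin-treated 2 and 0.589 CPM (15 counts) in diabetes 1. Of the membrane attack genes, C7 was at 120 CPM in diabetes 2 and 5.89 to 33.5 CPM elsewhere, and C6 at 44.2 CPM in diabetes 2, 4.10 CPM in curcumin-treated 1 and 0 counts in control 1. C4a, a close copy of C4b, stood at 28.2 CPM in diabetes 2 and 0.542 to 1.44 CPM elsewhere. Of the 5773 windows of 150 bases in C4b transcripts, 7.48% occur in C4a as well, so a part of the reads of either gene could not be assigned with certainty.

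The regulators split into opposing sets. Serping1, the C1 inhibitor, was highest in diabetes 2 at 678 CPM against 77.4 to 200 CPM elsewhere. Clu, which encodes clusterin, a secreted chaperone that also blocks the membrane attack complex, was highest in diabetes 1 (18307 CPM), curcumin-treated 2 (10463) and control 1 (9623), and lowest in curcumin-treated 1 (522) and diabetes 2 (208). C4bp, a C4b-binding inhibitor, was at 1844 CPM, 962 CPM and 1112 CPM in the same 3 libraries in that order, at 38.4 CPM in curcumin-treated 1 and at 3 counts in diabetes 2. The 3 libraries high in Clu and C4bp are those high in epididymal markers, and the part of the epididymis in these levels was not tested. Genes whose curcumin-treated and diabetic libraries did not overlap, named after their values were seen, were Cfi, Cd59b and Cr1l on the lower side and C8b and Cd46 on the higher side, that is 3 and 2 of the 34, against 9.72% and 17.9% of all genes.

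**Figure D5:**
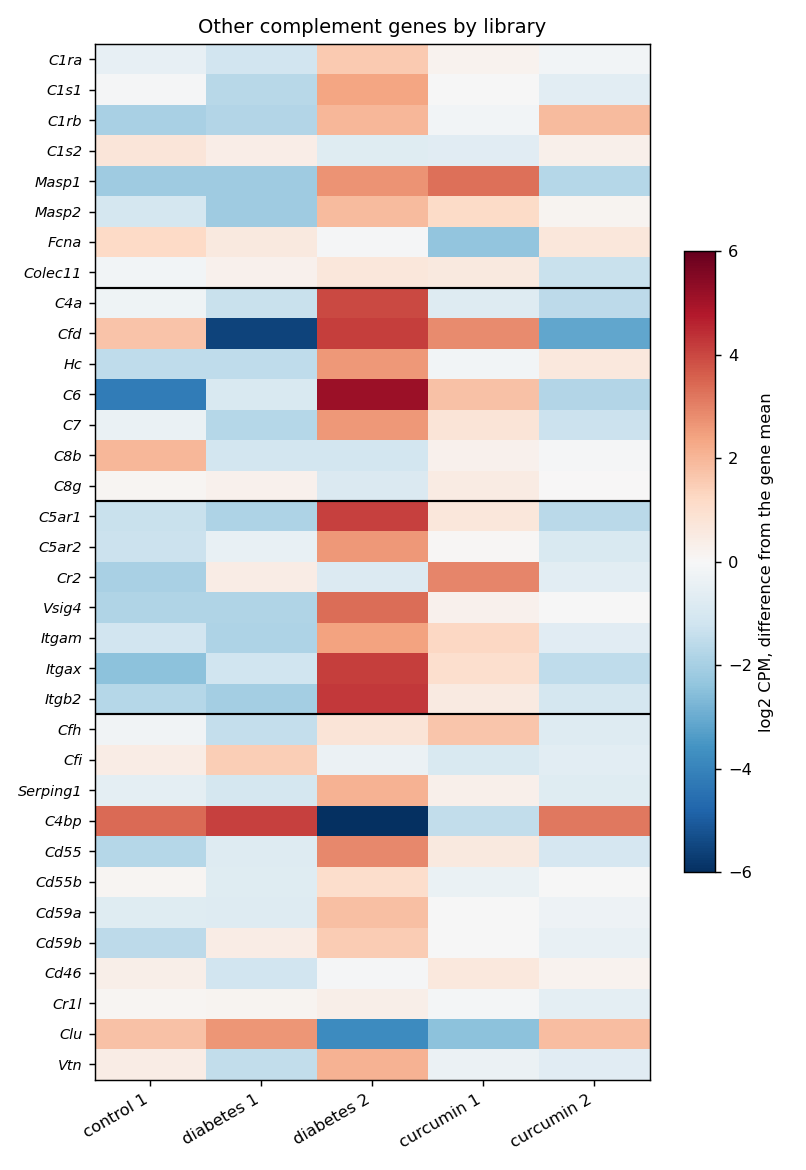
Difference of log2 CPM from each gene's mean over the 5 libraries (colour, with the end colours used past 6 in either direction) for 34 further complement genes, in blocks from top to bottom of initiating, alternative and terminal, receptor and regulator genes. Most rows are darkest red in diabetes 2, while Clu and C4bp are red in control 1, diabetes 1 and curcumin-treated 2.

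Over the whole table, the genes with levels most like each complement gene were ranked by the root mean square difference of centred log2 CPM over the 5 libraries, among 14175 named genes whose log2 CPM averaged 1 or more. For C1qa these were Gm14150 (0.06), a processed pseudogene that shares 24.7% of its windows of 150 bases with the tubulin gene Tuba1b, then Clec3b (0.10) and the transcription factor gene Maf (0.12). For C1qb they were Nudt7 (0.09), Medag (0.10) and Plbd1 (0.13), and for C1qc Fcgr1 (0.09), an Fc receptor of macrophages, Maff (0.14) and Dolk (0.18). For C3 they were Slc37a2 (0.20), Emp1 (0.23) and Lgals3 (0.23), and for C4b Hk3 (0.11), Slc37a2 (0.24) and Ccdc80 (0.26). Cfp lay closest to Tnfaip8l2 (0.09), Lrp12 (0.13) and Slfn5 (0.14), and C3ar1 to Epb41l2 (0.16), Dock2 (0.18) and Lox (0.21). C2 had only Ret (0.13) within 0.2, and the nearest to Cfb, Ubd, differed by 0.49.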

How the data were processed

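RNA labelled as from visceral fat was read as poly-A libraries made with a strand-marking kit, per the labels' protocols. The values that the authors deposited are raw counts of 78334 Ensembl genes. FastQC, featureCounts and the GRCm39 build are named in the submitters' processing notes. For the aligner, strand setting and release of the annotation, nothing is given in the sources used here. Symbols were matched by ID for 51486 genes (65.7%). Gene models and sequences were of GRCm38.

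CPM values are scaled to the library total. Differences were fitted on all genes in a single model of the 5 libraries by the two-sided quasi-likelihood test of edgeR (version 4.0.16, R 4.3.3), after TMM scaling and filterByExpr, with robust fitting and legacy mode off. Adjusted p-values are Benjamini-Hochberg values over 29855 genes, called at 0.05. Residual degrees of freedom were 2, and the biological coefficient of variation was 1.07. The lone control library is taken to scatter as the replicated groups do. A standard error is the log2 value divided by the root of F, and fitted values use a prior count of 0.125; centred levels use a prior count of 2. Alternatives were other scalings and filters, DESeq2 1.42.0, limma-voom (limma 3.58.1), a replicate block and leaving out each replicated library. On simulated counts for curcumin against diabetes (200 genes changed by 3 on the log2 scale), the test recovered 100% of them at a coefficient of variation of 0.2 (25476 genes) and 0% at 1 (26899 genes).

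The complement genes and all lists were chosen with earlier results of these data known. Of 165 listed genes, 164 were matched. All 9 complement genes are named; of other lists, genes past the threshold, the 3 most abundant, or those with 0 counts in at least 2 libraries and over 100 in another, and the 3 genes most like each complement gene; others were named after their values were seen. Reads carry no molecular identifiers, so intervals and limits at 0 counts describe counting error alone. Of the 45 gene-by-library values, 41 rest on 50 counts or more, with a 95% Poisson interval of at most 24.0% to either side.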

Additional observations from a re-analysis of the deposited data

How the results depend on the processing

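Leaving out 1 replicated library at a time gave, for curcumin against diabetes, log2 fold changes of −1.37 to 2.31 for C1qa, −2.79 to 1.45 for C1qb, −2.32 to 1.46 for C1qc, −2.20 to 0.73 for C2, −4.32 to 2.92 for C3, −4.24 to 3.31 for C4b, −6.97 to 7.16 for Cfb, −2.61 to 2.07 for Cfp and −4.13 to 1.79 for C3ar1, where each highest value is without diabetes 2. For diabetes against control the values ran −0.66 to 3.03 for C1qa, −0.49 to 3.75 for C1qb, −0.69 to 3.09 for C1qc, −1.46 to 1.46 for C2, −0.77 to 6.01 for C3, −1.63 to 5.79 for C4b, 0.00 to 12.66 for Cfb, −0.97 to 3.70 for Cfp and −1.11 to 4.81 for C3ar1, where each lowest value is without diabetes 2. For curcumin against control no sign turned under any alternative, with values of 1.54 to 1.75 for C1qa, 0.55 to 1.27 for C1qb, 0.68 to 0.84 for C1qc, −1.31 to −0.33 for C2, 0.71 to 2.86 for C3, 0.56 to 2.29 for C4b, 4.66 to 7.83 for Cfb, 0.86 to 1.28 for Cfp and 0.27 to 1.00 for C3ar1 without a library. In limma-voom, which averages log values, C1qa in curcumin against diabetes was at 0.50 and C2 in diabetes against control at −0.055.

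Deviations of same-numbered diabetic and curcumin-treated libraries from their group means correlated at −0.41 across genes. This value cannot decide whether the libraries are paired, because those of each group also differ in tissue content. Epididymal markers were high in diabetes 1 and curcumin-treated 2, and low in diabetes 2 and curcumin-treated 1. With a replicate block, C1qa was at 0.46 (curcumin against diabetes) and C2 at −0.88 (diabetes against control), with 0 genes called in any comparison. A crossed pairing of the 4 diabetic libraries, chosen after seeing the data, gave 0.45 for C1qa and called 0 genes. All other alternatives (RLE, upper quartile and total scaling, both filters, the fit of 4 libraries) gave the 9 genes the same signs and called none of them. The median over all genes in curcumin against control was 0.17 with TMM and 0.03 with library totals. DESeq2 called 1 of the 9 in diabetes against control and 1 in curcumin against control. In both cases it was Cfb, at 0 counts in the control. Diabetes 1 also held 0 Cfb counts, so all counts behind the first call are the 624 of diabetes 2. Behind the second call were 31 counts in curcumin-treated 1 and 4 in curcumin-treated 2. Why DESeq2 called Cfb and edgeR did not was not tested. In all, edgeR called 0 genes and DESeq2 94, 53 and 72 in the 3 comparisons.

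Without the most abundant marker of each library, which was not the same gene in all, C1q counts per macrophage marker were 1.03 in control 1. They were 0.764 and 0.834 in diabetes and 1.73 and 1.87 with curcumin. With Adgre1 and Cd68 only, the ratios were 5.58, 4.11, 1.75, 7.76 and 12.9 in the same order. Among levels per kilobase, another length (coding sequence or longest transcript, added after seeing the data) changed the place of C3 among the C1q chains. The C1qa share per coding length was 31.3% and 26.3% in diabetes and 39.9% and 51.1% with curcumin. Low counts limit Cfb (0 to 31 counts outside diabetes 2).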

Other observations

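Genes of cytokines and factors known to induce complement transcription were also at hand (17 genes, 16 tested). The inducers themselves were scarce: Ifng held at most 8 counts, Il6 at most 13 and Tnf at most 88 in any library. Nr1h3, which encodes the lipid-sensing receptor LXR alpha, was at 129 CPM in diabetes 2 and 6.08 to 22.9 CPM elsewhere; these 4 genes were named after their values were seen. Ifngr1, a chain of the interferon gamma receptor, was at 343 CPM in diabetes 2 and 51.6 to 80.8 CPM elsewhere. Il6st, the signalling chain of the interleukin 6 receptor, was instead highest in curcumin-treated 1, at 318 CPM, with 268 CPM in diabetes 2 and 73.2 to 94.1 CPM in the others. Stat3 varied little, from 89.7 CPM in control 1 to 126 CPM in diabetes 2. None of the 16 passed the threshold in edgeR in any comparison, and 0 had an unadjusted p under 0.05.

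Hepatocyte markers, of the organ that makes most plasma complement, held 25 to 688 counts in all per library, with Alb at 307 counts in diabetes 2 and 0 to 46 elsewhere. Neutrophil markers held 11 to 766 counts in all, of which S100a8 gave 562 in diabetes 2, while Retnlg was at 0 in every library and Ly6g held 2 counts in curcumin-treated 1 and 0 elsewhere.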
